A study of Mus musculus with 15 samples.

Results

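The genes described here are the chemokine and interleukin ligands of cultured mouse adipocytes. The rule that picks them reads the symbol and no measured value: every gene of the count table named Ccl or Cxcl with a number, Cx3cl1, every interleukin named Il with a number (and a, b or f where a letter follows), and Lif, Csf1, Csf2, Csf3 and Tnf. The rule was met by 59 of 18804 genes, of which 19 were Ccl genes, 13 Cxcl genes, 21 interleukins and 6 others. The RNA came from white adipocytes that were grown out of mesenchymal stem cells of C57BL/6J mice, which by the study's methods were taken from the ear. Adipogenesis was induced with methylisobutylxanthine, dexamethasone, insulin and troglitazone, and every culture was harvested 16 days later. Another section of the study's methods names rosiglitazone in place of troglitazone. Cells of the day 0 group were kept at 37°C, those of the day 1 group went to 31°C on day 15 and those of the day 12 group on day 4, with 5 libraries in each group and 15 in all. Time at 31°C and the stage of differentiation at the move therefore cannot be told apart. Whether libraries of 1 group were made from different mice or dishes is not said in the sources used here, so p-values measure the spread between libraries only.

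Chemokines are small secreted proteins that draw white blood cells along a gradient, and they bind receptors with multiple passes through the membrane. They are named by the spacing of their first cysteines, as CC (Ccl genes), CXC (Cxcl genes) and CX3C (Cx3cl1). Interleukins and colony-stimulating factors act on the growth and state of target cells through cytokine receptors, many of which signal through JAK kinases and STAT factors. Adipocytes and their precursors are known to make several of these ligands, and many of the genes are induced by NF-kB or by interferon.

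The total count of a library was 92387376 to 133270973 at day 0, 74430465 to 105322757 at day 1 and 64648178 to 91338649 at day 12. Levels are given in CPM, the usual scale on which a gene's count is divided by the library's total, here after TMM scaling. With 0 counts the level could still be as high as 0.0238 to 0.0428 CPM, a limit of 3 counts that covers counting error only. Fold changes are on the log2 scale with their standard error (SE) from edgeR's quasi-likelihood test of 14293 genes. Calls of higher or lower needed a fold change over 1.5 and an adjusted p (Benjamini-Hochberg) under 0.05. Defining markers of adipocytes were present, with Adipoq (adiponectin) at 1095 ± 41.4 CPM and Plin1 (perilipin) at 200.2 ± 5.66 CPM at day 0 (SD, n = 5). The stromal gene Dcn (decorin) was at 5984 ± 206 CPM in the same libraries. In such bulk RNA, fewer cells of a type and less RNA per cell cannot be told apart. The library numbers in the labels fall into a larger series of 11 libraries and a smaller one of 4, which all groups hold, and their meaning is not given.

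More of the tested ligands fell than rose against day 0 at 31°C. At day 12 the chemokines Cx3cl1, Cxcl12, Cxcl10, Cxcl9 and Cxcl14, the macrophage growth factor Csf1 and the lymphocyte factor Il15 had fallen. The neutrophil chemokine Cxcl5 and the cytokine Il6 had risen. At day 1 Cxcl3, Il33, Il34, Ccl7, Cxcl2 and Ccl2 had fallen, and Ccl17 had risen 12.97-fold. Ccl2 and Cxcl2 were within 1.5-fold of day 0 again at day 12.

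Of the 59 genes, 38 passed the filter on low counts: 12 Ccl, 12 Cxcl, 9 interleukins and 5 others. At day 1 against day 0, 4 were called higher, where 7.71% of all tested genes were, and 12 lower, where 13.4% were. At day 12 against day 0, 7 were higher beside 13.0% of all genes, and 17 lower beside 16.2%. The difference between day 12 and day 1 was called higher at day 12 for 11 members, beside 10.6% of all genes, and lower for 13, beside 8.53%. In either direction the share of all genes called was 21.1%, 29.2% and 19.1%. The median log2 fold change of the 38 was -0.27 at day 1 and -0.25 at day 12, where that of all tested genes was -0.0088 and 0.012. It was -0.14 for day 12 against day 1, where that of all genes was 0.0092. Total counts in place of TMM scaling moved the median of all genes to 0.21 and 0.18 in the comparisons of day 12 with day 0 and day 1. With them 10 members were higher and 17 lower against day 0, with a median of -0.059. Against day 1, 12 members were higher and 11 lower, with a median of 0.032. A member that passed the filter only through the group where it was high had to differ, so these counts describe the tested members and not all 59.

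Both comparisons with day 0 share its libraries. The 5 values of each group did not overlap for 17 members at day 1 against day 0 and for 24 at day 12 against day 0, beside 57.4% and 64.6% of all tested genes. For day 12 against day 1 they did not overlap for 25 members, beside 52.5%.

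**Figure D1:**
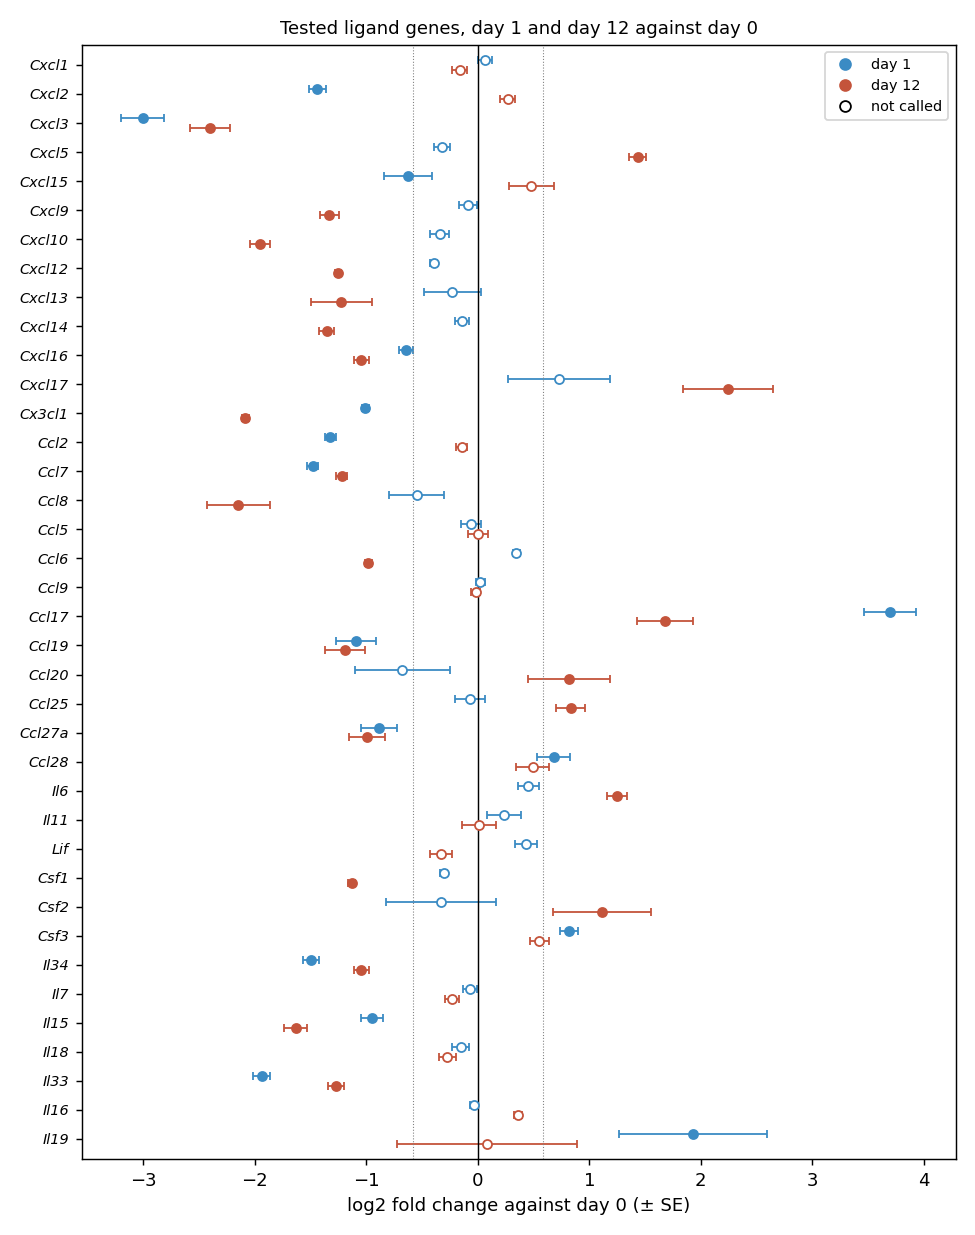
Log2 fold change against day 0 (x axis, ± SE) of the 38 tested ligand genes (y axis), at day 1 in blue and day 12 in red, with open points for genes that were not called and dotted lines at the 1.5-fold limit. The points to the right at day 12 include Ccl17, Cxcl5 and Il6, and also Cxcl17, which passed the filter through day 12. Those to the left include Cxcl3, Ccl8, Cx3cl1 and Cxcl10.

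Levels of different genes are compared per length, as CPM per kilobase of exon. On that scale the highest member at day 0 was Cxcl5 (477), and next came Ccl7 (299), Cxcl12 (286), Cx3cl1 (217), Ccl2 (171), Csf1 (135) and Cxcl1 (134). At day 12 Cxcl5 had a level per length of 1289, followed by Ccl2 at 155, Ccl7 at 128, Cxcl12 at 120.0 and Cxcl1 at 119.8, while Cx3cl1 was at 50.9. Apart from Csf1, chemokines thus filled the top of the order, and the highest interleukin was Il6, at 12.9 at day 0 and 30.7 at day 12.

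**Figure D2:**
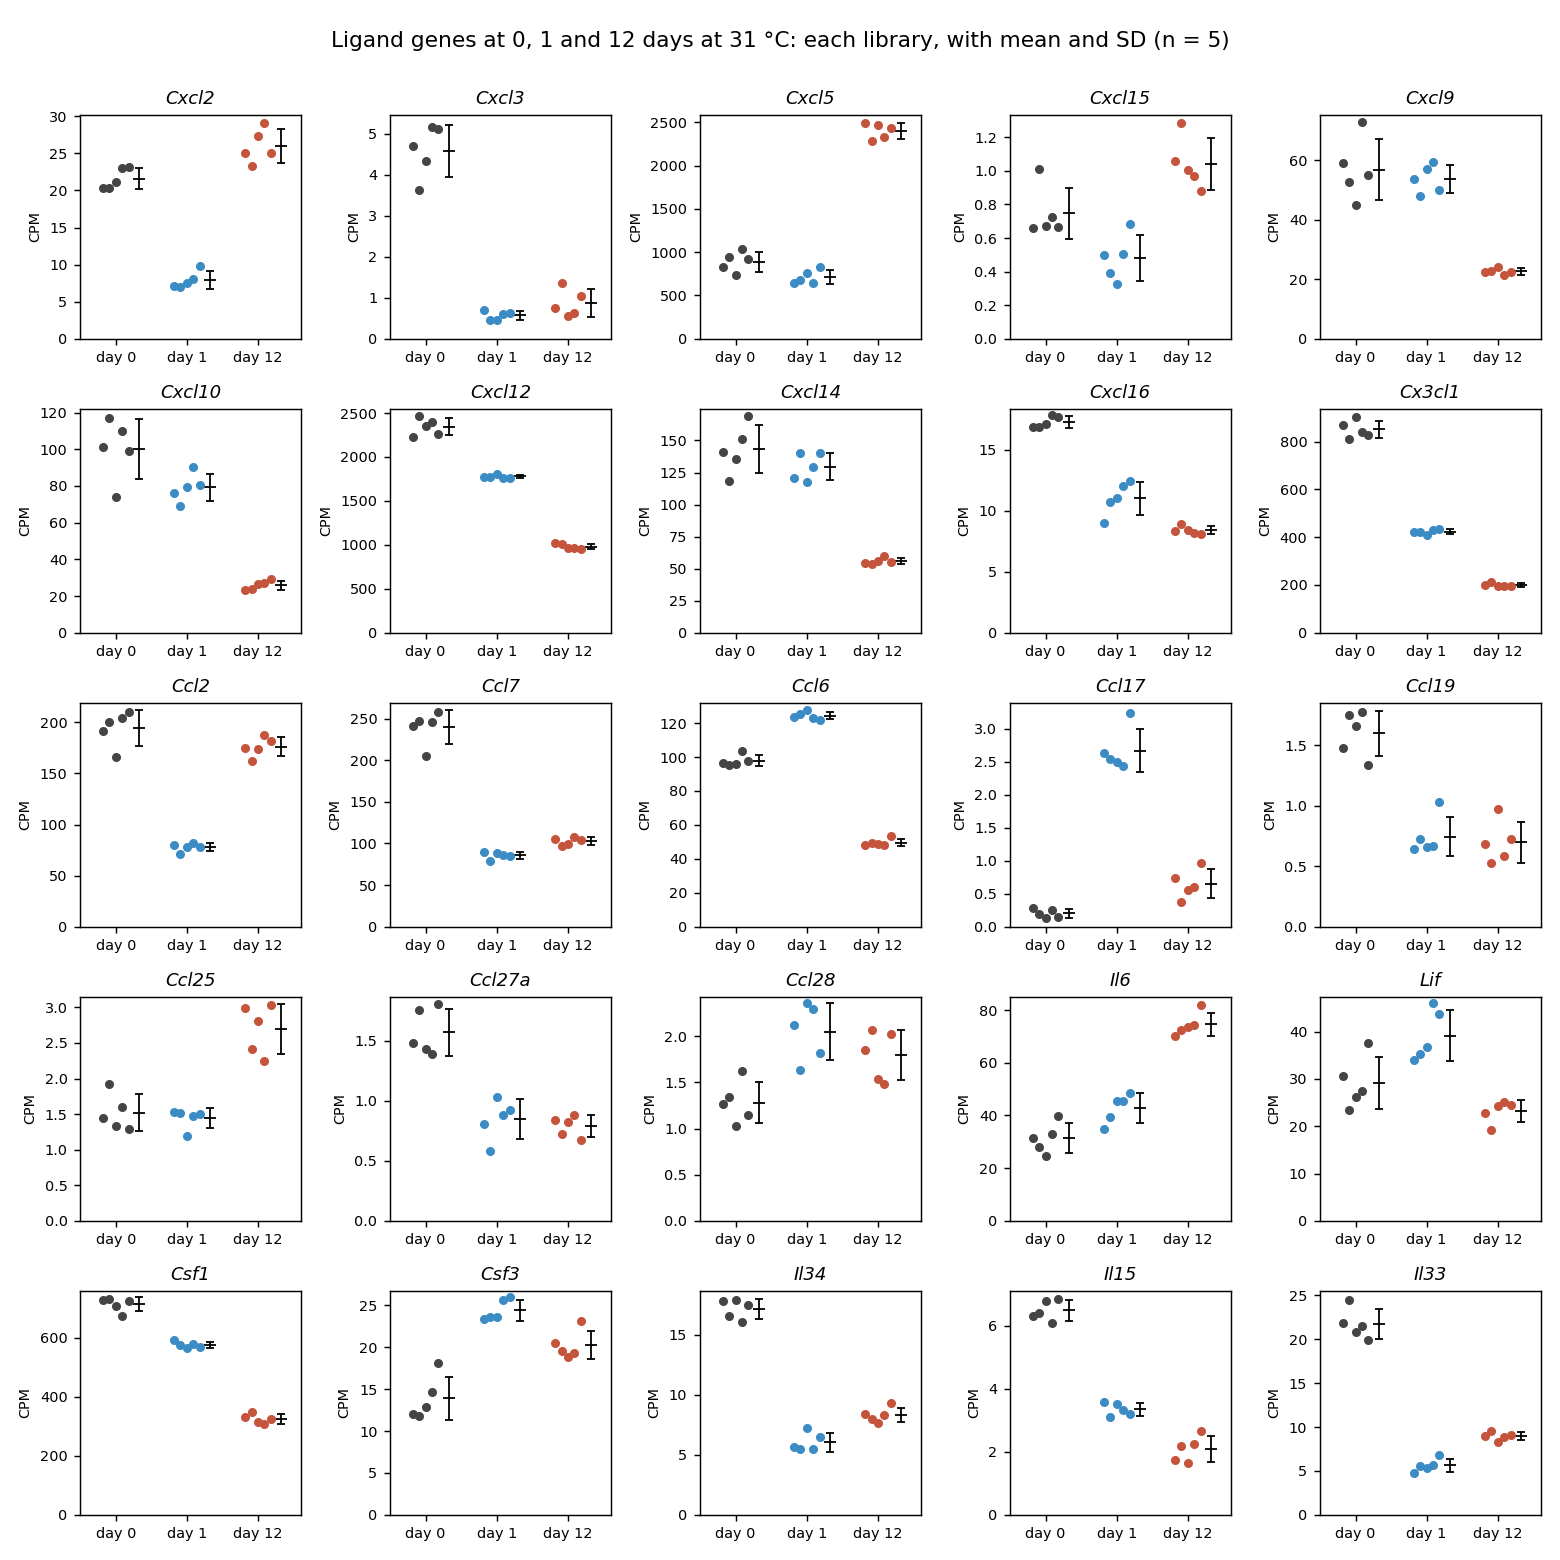
Level in CPM (y axis, from 0) of the 25 ligand genes that reached a mean of 1 CPM in a group and were called in some comparison, with 1 point per library and the mean and SD of the 5 libraries beside it. Cx3cl1, Cxcl12 and Csf1 step down from day 0 to day 1 to day 12, while Ccl2 and Cxcl2 are low at day 1 alone.

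The neutrophil chemokines Cxcl1, Cxcl2, Cxcl3, Cxcl5 and Cxcl15 act through the receptor Cxcr2 or are grouped with those that do, and their genes stand together on chromosome 5. At day 12 Cxcl5 was called higher and Cxcl3 lower. Cxcl5 was at 824, 939, 730.2, 1032 and 922 CPM in the 5 day 0 libraries, 639, 677, 764, 639.9 and 829 CPM at day 1 and 2492, 2286, 2465, 2325 and 2434 CPM at day 12. Every day 12 library stood above every other library, while day 0 and day 1 overlapped. Its log2 fold change was 1.43 ± 0.072 at day 12 (adjusted p = 6.47e-15), a 2.70-fold rise, and -0.33 ± 0.071 at day 1, under the fold limit.

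Cxcl3 fell at both times. It was at 4.70, 3.62, 4.33, 5.15 and 5.11 CPM at day 0, 0.704, 0.458, 0.446, 0.600 and 0.637 CPM at day 1 and 0.751, 1.36, 0.547, 0.613 and 1.04 CPM at day 12. All 10 libraries of the cooled groups were below all day 0 libraries, and the cooled groups overlapped each other. Its log2 fold change was -3.005 ± 0.19 (adjusted p = 1.06e-12) at day 1, and at day 12 it was -2.40 ± 0.18 (adjusted p = 1.51e-11). The step from day 1 to day 12 was 0.60 ± 0.22 (adjusted p = 0.0168), and that call was lost without day 1 replicate 2 (0.54) or 3 (0.52), or day 12 replicate 2 (0.39) or 5 (0.52), and in the larger library series (adjusted p = 0.0661).

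Cxcl2 was low at day 1 only. It was at 20.3, 20.3, 21.1, 23.03 and 23.1 CPM at day 0, 7.14, 6.94, 7.53, 8.10 and 9.86 CPM at day 1 and 25.01, 23.3, 27.4, 29.1 and 25.04 CPM at day 12. The 3 groups did not overlap, with day 1 lowest and day 12 highest. Cxcl2 fell at day 1 (log2 fold change -1.44 ± 0.077, adjusted p = 3.23e-14) and was higher at day 12 than at day 1 (1.71 ± 0.077, adjusted p = 1.60e-15), while day 12 against day 0 stayed under the fold limit (0.27 ± 0.071). Cxcl1, of the same kind, was called in no comparison. It ranged from 215 to 287 CPM at day 0, 227 to 293 CPM at day 1 and 198 to 239 CPM at day 12.

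Cxcl15 (lungkine), best known from lung epithelium, was near 1 CPM. Its values were 0.659, 1.01, 0.669, 0.728 and 0.666 CPM at day 0, 0.499, 0.389, 0.326, 0.502 and 0.686 CPM at day 1 and 1.06, 1.29, 1.01, 0.969 and 0.879 CPM at day 12. Day 12 stood above day 1 without overlap, and day 0 overlapped both. Cxcl15 was higher at day 12 than at day 1 (log2 fold change 1.10 ± 0.21, adjusted p = 7.79e-05). Its fall at day 1 (-0.62 ± 0.22, adjusted p = 0.0129) was not called without replicate 2 of day 0 (-0.49), or without replicate 2 (-0.56) or 3 (-0.50) of day 1. At day 12 against day 0 it was at 0.48, and a rise was called without day 0 replicate 2 (0.61) and with total counts in place of TMM scaling (0.67).

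The sequences just upstream of these genes are shown because 3 of them share an element. Cxcl1, Cxcl2 and Cxcl3 hold the same match to the kappa-B motif (GGG, then 3 bases of any kind, then TTCC), the kind of site that NF-kB binds, shortly before their start sites. RefSeq (GRCm38.p6) gives these 30-base windows, written 5′ to 3′ on the plus strand with the match in capitals.
Cxcl1, chr5:90891164-90891193, match 71 to 62 bases before the start: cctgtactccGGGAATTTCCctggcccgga
Cxcl2, chr5:90903792-90903821, match 97 to 88 bases before the start: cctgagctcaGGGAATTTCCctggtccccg
Cxcl3, chr5:90786018-90786047, match 73 to 64 bases before the start: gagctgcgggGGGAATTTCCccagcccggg
At day 1, log2 fold changes beside these windows were 0.065 for Cxcl1, -1.44 for Cxcl2 and -3.005 for Cxcl3. The windows were chosen after the values were seen, and a match is a description and not a site.

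Cxcl3 had the largest fall at day 12 of the tested members, so its 250 bases upstream are given. They come from the plus strand between Cxcl5 and Cxcl3, outside any annotated gene, with kappa-B matches in capitals.
Cxcl3, chr5:90785851-90786100: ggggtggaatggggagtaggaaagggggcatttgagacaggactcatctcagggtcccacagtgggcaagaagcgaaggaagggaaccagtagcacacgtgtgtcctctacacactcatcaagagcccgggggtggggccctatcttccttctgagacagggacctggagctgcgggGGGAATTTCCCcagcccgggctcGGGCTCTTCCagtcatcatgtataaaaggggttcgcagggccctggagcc
Both strands were searched and overlapping matches merged. A kappa-B match stood in the 250 bases before the start in 5.31% of 27025 mouse genes, and in 9 of the 28 tested members that have an entry. These 9 were Ccl9, Ccl20, Csf1, Cxcl1, Cxcl2, Cxcl3, Cxcl10, Il6 and Il16, whose log2 fold changes at day 12 ran from -2.40 for Cxcl3 to 1.25 for Il6. They therefore included genes called lower, genes called higher and genes not called.

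Cxcl9, Cxcl10 and Cxcl11 are the chemokines that interferon induces, and they draw activated T cells through Cxcr3. All 3 lie side by side on chromosome 5, and the pair that could be tested was low at day 12. Cxcl10 was at 101, 117, 73.96, 109.8 and 99.1 CPM at day 0, 76.3, 69.3, 79.3, 90.3 and 80.5 CPM at day 1 and 23.1, 23.95, 26.5, 26.96 and 29.1 CPM at day 12. Each day 12 library was below each library of the other groups, which overlapped each other. The fall at day 12 was 3.87-fold (log2 fold change -1.95 ± 0.090, adjusted p = 1.05e-15), and day 1 stood at -0.34 ± 0.085, under the fold limit.

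Cxcl9 was also low at day 12. Its values were 58.9, 52.7, 44.8, 72.6 and 55.1 CPM at day 0, 53.5, 47.99, 56.98, 59.2 and 50.1 CPM at day 1 and 22.3, 22.7, 24.2, 21.3 and 22.4 CPM at day 12. Day 0 and day 1 covered the same range, with all day 12 libraries below it. Cxcl9 fell at day 12 (-1.33 ± 0.084, adjusted p = 4.83e-13) and was at -0.085 ± 0.081 at day 1. Cxcl11 did not pass the filter: it had at most 16 counts in a day 0 library, 6 in a day 1 library and 2 in a day 12 library. The strand of the counting was not stated, and 5.91% of the exon bases of Cxcl10 lie in Art3 and 41.7% of those of Cxcl11 in Gm2673, so their counts may hold reads of these genes.

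The 250 bases before the start of Cxcl10 (minus strand), which lie in an intron of Art3 on the other strand, held matches to both kappa-B and the interferon-response motif (GAAA, then 2 bases of any kind, then GAAA), which are set in capitals.
Cxcl10, chr5:92348890-92349139: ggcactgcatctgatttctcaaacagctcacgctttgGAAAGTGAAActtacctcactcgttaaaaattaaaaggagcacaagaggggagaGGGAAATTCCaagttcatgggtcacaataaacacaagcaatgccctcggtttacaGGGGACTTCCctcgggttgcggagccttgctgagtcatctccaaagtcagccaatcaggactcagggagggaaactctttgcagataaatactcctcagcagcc
The interferon-response motif was found in 3.46% of the 27025 genes and in 4 of the 28 tested members, Ccl19, Cxcl10, Cxcl14 and Il19. The motif TGANTCA, read by AP-1, was found in 7.82% of all genes and 7 of the 28 members, and TTCNNNGAA, read by STAT factors, in 8.13% and 3.

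Among the other CXC chemokines, Cxcl12 was the most abundant. Cxcl12 is the stromal factor that holds blood progenitors in the marrow through Cxcr4 and also binds the scavenger Ackr3. It was at 2229.9, 2471, 2350.2, 2394 and 2265 CPM at day 0, 1776, 1777, 1808, 1765 and 1766 CPM at day 1 and 1017, 1004, 962, 964 and 957 CPM at day 12. The 3 groups were separate and stepped down in that order. Cxcl12 fell 2.39-fold at day 12 (log2 fold change -1.26 ± 0.029, adjusted p = 1.86e-21), and its value at day 1, -0.40 ± 0.028, was under the fold limit.

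Cxcl14, a chemokine of epithelia and stroma whose receptor is not settled, was lower at day 12 only. It was at 141, 118, 136, 151 and 169 CPM at day 0, 121, 140.4, 118, 129.5 and 140.3 CPM at day 1 and 54.6, 53.9, 56.1, 59.9 and 54.9 CPM at day 12. No day 12 library reached the range that the other groups shared. The fall was -1.36 ± 0.066 at day 12 (adjusted p = 3.38e-15), and day 1 was at -0.14 ± 0.064. Cxcl16, a membrane-bound chemokine and ligand of Cxcr6, was at 16.9, 16.9, 17.2, 17.9 and 17.7 CPM at day 0, 8.99, 10.7, 11.03, 12.04 and 12.5 CPM at day 1 and 8.37, 8.93, 8.40, 8.18 and 8.07 CPM at day 12. All cooled libraries were below all day 0 libraries. Cxcl16 fell at day 1 (-0.64 ± 0.063, adjusted p = 2.24e-09) and was also lower at day 12 (-1.04 ± 0.064, adjusted p = 2.88e-13), and without day 1 replicate 1 the day 1 value was -0.58, within the fold limit. Of the Cxcl16 exon bases 18.3% lie in Zmynd15 on the other strand.

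Cxcl13, which draws B cells through Cxcr5, and Cxcl17, a mucosal chemokine, were below 1 CPM in every group. Cxcl13 ranged from 0.441 to 0.904 CPM at day 0 and 0.189 to 0.486 CPM at day 12, overlapping ranges, and was called lower at day 12 (-1.22 ± 0.27, adjusted p = 3.03e-04). Cxcl17 was called higher at day 12 (2.24 ± 0.40, adjusted p = 2.27e-05), from 0.0114 to 0.108 CPM at day 0 to 0.238 to 0.467 CPM. These Cxcl17 ranges did not overlap. It had 1 to 11 counts at day 0, 6 to 13 at day 1 and 21 to 37 at day 12. Cxcl17 thus passed the filter through the group where it was high. A gene kept in that way had to differ, so its call and ranges are a description only.

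Cx3cl1 (fractalkine) is made as a membrane-bound protein that holds monocytes and lymphocytes bearing Cx3cr1, and it is also shed. It was at 869.9, 813, 902, 841 and 829.7 CPM at day 0, 422, 420.3, 408, 429 and 435 CPM at day 1 and 201, 212, 195, 197 and 196 CPM at day 12. The groups were far apart beside their spread, with day 1 between the others. Cx3cl1 fell 2.01-fold at day 1 (log2 fold change -1.01 ± 0.030, adjusted p = 9.41e-19) and 4.25-fold at day 12 (-2.09 ± 0.031, adjusted p = 1.40e-24). The step between the cooled groups was also called (-1.08 ± 0.031, adjusted p = 2.52e-19). The 250 bases before its RefSeq start held no match to the kappa-B or interferon-response motif. Those that lie before the annotated gene are given, since the fall was among the 4 largest of tested members at day 12, and no letter is in capitals.
Cx3cl1, chr8:94771930-94772008, plus strand: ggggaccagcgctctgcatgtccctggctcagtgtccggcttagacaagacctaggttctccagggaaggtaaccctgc

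Ccl2, Ccl7, Ccl8, Ccl11 and Ccl12 are the monocyte and eosinophil chemokines of a cluster on chromosome 11. Ccl2 and Ccl7 draw monocytes through Ccr2. Ccl2 was at 192, 200.2, 166, 204 and 211 CPM at day 0, 79.5, 71.6, 78.1, 81.9 and 77.9 CPM at day 1 and 175, 163, 174, 188 and 182 CPM at day 12. Day 1 stood alone below the overlapping ranges of day 0 and day 12. Ccl2 fell 2.50-fold at day 1 (log2 fold change -1.32 ± 0.050, adjusted p = 6.76e-17), and day 12 was at -0.14 ± 0.049 against day 0 and 1.18 ± 0.050 against day 1 (adjusted p = 5.77e-16). With total counts in place of TMM scaling the value at day 12 against day 0 was 0.049.

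Ccl7, its neighbour, was at 242, 247, 205, 246 and 258 CPM at day 0, 89.8, 79.4, 88.5, 86.2 and 84.7 CPM at day 1 and 105, 96.9, 98.9, 108 and 105 CPM at day 12. Both cooled groups were below day 0, and day 12 stood a little above day 1 without overlap. Ccl7 fell at day 1 (-1.48 ± 0.047, adjusted p = 2.65e-18) and was still lower at day 12 (-1.22 ± 0.047 against day 0, adjusted p = 3.26e-17). Whether these neighbours differed from each other at day 12 was not tested.

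Ccl8, another member of this family, was below 1 CPM and was at 0.579, 0.560, 0.374, 0.580 and 0.546 CPM at day 0, 0.307, 0.403, 0.315, 0.377 and 0.402 CPM at day 1 and 0.0902, 0.139, 0.146, 0.143 and 0.0827 CPM at day 12. Day 12 was lowest without overlap. Ccl8 fell at day 12 (-2.15 ± 0.28, adjusted p = 2.46e-07). At day 1 it was at -0.55 ± 0.25, which was called lower only without day 0 replicate 3 (-0.65), the lowest library of its group. The 250 bases before its start, shown for the size of its fall, held neither motif.
Ccl8, chr11:82114935-82115184, plus strand: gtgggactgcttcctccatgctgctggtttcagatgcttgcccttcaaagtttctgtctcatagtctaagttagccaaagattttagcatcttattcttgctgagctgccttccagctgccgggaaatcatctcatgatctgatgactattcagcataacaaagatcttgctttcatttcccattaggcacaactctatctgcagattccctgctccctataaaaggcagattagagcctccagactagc
Ccl11 (eotaxin) and Ccl12 were not tested, with at most 5 and 2 counts in a library.

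Ccl5, Ccl6, Ccl9, Ccl3 and Ccl4 form a neighbouring cluster on chromosome 11. Ccl6 and Ccl9 are rodent chemokines that act on macrophages, chiefly through Ccr1. Ccl6 was at 96.5, 95.2, 96.2, 104 and 97.96 CPM at day 0, 124, 125, 128, 123 and 122 CPM at day 1 and 48.4, 49.2, 48.6, 48.2 and 53.4 CPM at day 12. The 3 groups were separate, with day 1 highest and day 12 lowest. Ccl6 fell at day 12 against day 0 (-0.98 ± 0.031, adjusted p = 9.26e-19) and against day 1 (-1.33 ± 0.032, adjusted p = 1.15e-20), and day 1 against day 0 was at 0.35 ± 0.031, under the fold limit.

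Ccl9 lies next to Ccl6 and was called in no comparison, with ranges of 174 to 201, 173 to 199 and 173 to 195 CPM at day 0, day 1 and day 12. Ccl5 (RANTES), which draws T cells and monocytes, ranged from 15.8 to 22.7, 15.6 to 21.4 and 17.2 to 22.2 CPM. The 3 ranges overlapped for both genes. Log2 fold changes against day 0 were 0.023 ± 0.043 and -0.019 ± 0.043 for Ccl9 and -0.062 ± 0.089 and 0.0039 ± 0.088 for Ccl5. Ccl3 had at most 25 counts and Ccl4 at most 8 in any library, and neither passed the filter.

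Ccl17 had the largest rise of the tested members at day 1. It is a ligand of Ccr4 that draws type 2 helper T cells and regulatory T cells. Ccl17 was at 0.286, 0.194, 0.128, 0.250 and 0.153 CPM at day 0, 2.62, 2.54, 2.49, 2.43 and 3.23 CPM at day 1 and 0.741, 0.378, 0.559, 0.599 and 0.972 CPM at day 12. The 3 groups did not overlap, with day 1 highest and day 0 lowest. Ccl17 rose at day 1 (log2 fold change 3.70 ± 0.23, adjusted p = 6.51e-13) and was above day 0 at day 12 too (1.68 ± 0.25, adjusted p = 1.72e-06), and day 12 was below day 1 (-2.02 ± 0.20, adjusted p = 4.39e-09). Ccl22, the other ligand of Ccr4, had at most 4 counts in a library.

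The other CC chemokines were expressed at low levels. Ccl19, a ligand of Ccr7 that guides T cells and dendritic cells to lymph nodes, was at 1.48, 1.75, 1.66, 1.77 and 1.34 CPM at day 0, 0.640, 0.722, 0.663, 0.670 and 1.03 CPM at day 1 and 0.681, 0.530, 0.972, 0.584 and 0.724 CPM at day 12. Day 0 stood above the 2 cooled groups, which overlapped. Ccl19 fell, with log2 fold changes of -1.09 ± 0.18 (adjusted p = 8.37e-06) at day 1 and -1.19 ± 0.18 (adjusted p = 2.19e-06) at day 12. Ccl27a, a skin chemokine that acts through Ccr10, was at 1.48, 1.75, 1.43, 1.39 and 1.80 CPM at day 0, 0.807, 0.583, 1.03, 0.879 and 0.921 CPM at day 1 and 0.842, 0.719, 0.826, 0.884 and 0.672 CPM at day 12. Its order was the same, and it fell too, with log2 fold changes of -0.88 ± 0.16 (adjusted p = 3.34e-05) and -0.99 ± 0.16 (adjusted p = 6.45e-06). Ccl19 and Ccl27a lie in a duplicated stretch of chromosome 4 with near-identical copies, so their counts are uncertain.

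Ccl28, a mucosal chemokine that shares Ccr10, rose at day 1. It was at 1.26, 1.35, 1.03, 1.63 and 1.15 CPM at day 0, 2.13, 1.64, 2.36, 2.30 and 1.82 CPM at day 1 and 1.85, 2.07, 1.54, 1.48 and 2.03 CPM at day 12. Day 1 was just above day 0 without overlap, and day 12 overlapped both. Its log2 fold change at day 1 was called (0.68 ± 0.15, adjusted p = 2.33e-04). At day 12 it was at 0.49 ± 0.15, and a rise was called there without day 0 replicate 4 (0.59) and with total counts in place of TMM scaling (0.68).

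Ccl25, which acts through Ccr9 in thymus and gut, was at 1.45, 1.93, 1.34, 1.60 and 1.29 CPM at day 0, 1.54, 1.51, 1.20, 1.48 and 1.51 CPM at day 1 and 2.996, 2.42, 2.81, 2.25 and 3.04 CPM at day 12. Day 12 was above the shared range of the other groups. Ccl25 rose at day 12 against day 0 (0.83 ± 0.13, adjusted p = 3.15e-06) and day 1 (0.91 ± 0.13, adjusted p = 1.79e-06), and 2.74% of its exon bases lie in Elavl1. Ccl20, the ligand of Ccr6, reached at most 0.351 CPM in a library. It was called higher at day 12 against day 1 (1.49 ± 0.41, adjusted p = 0.00240). Against day 0 the value was 0.82 ± 0.37 (adjusted p = 0.0485), and leaving out 1 library ended that call in 12 of 15 cases, with values of 0.66 (without day 12 replicate 5) to 1.11 (without day 0 replicate 3). Ccl1 and Ccl24 had at most 2 and 4 counts.

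Il6, Il11 and Lif signal through gp130 (Il6st). Il6, which adipose tissue releases, was at 31.4, 28.2, 24.6, 32.8 and 39.7 CPM at day 0, 34.97, 39.3, 45.6, 45.7 and 48.7 CPM at day 1 and 70.3, 72.4, 73.6, 74.4 and 82.1 CPM at day 12. Each day 12 library was above every other library, and day 0 overlapped day 1. Il6 rose 2.38-fold at day 12 (log2 fold change 1.25 ± 0.090, adjusted p = 6.13e-12) and was above day 1 (0.80 ± 0.089, adjusted p = 2.82e-08), with day 1 against day 0 at 0.45 ± 0.091.

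Lif, which maintains stem cells, was at 30.7, 23.4, 26.1, 27.5 and 37.7 CPM at day 0, 33.9, 35.3, 36.7, 45.99 and 43.8 CPM at day 1 and 22.8, 19.3, 24.4, 25.1 and 24.4 CPM at day 12. Day 0 overlapped both cooled groups, and these were separate from each other. Lif was lower at day 12 than at day 1 (-0.76 ± 0.10, adjusted p = 3.95e-07), a call lost with total counts in place of TMM scaling (-0.58), and was at 0.43 and -0.33 against day 0. Il11 was called nowhere and ranged from 1.18 to 1.51, 1.20 to 1.93 and 1.23 to 1.68 CPM in the 3 groups.

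The colony-stimulating factors act on myeloid cells. Csf1 (M-CSF), the main growth factor of macrophages, was at 728, 732, 707, 675 and 723 CPM at day 0, 591, 576, 566, 579.7 and 569 CPM at day 1 and 331, 348, 315, 306 and 325 CPM at day 12. The groups stepped down without overlap. Csf1 fell 2.19-fold at day 12 (log2 fold change -1.13 ± 0.031, adjusted p = 7.06e-20), was lower than at day 1 (-0.83 ± 0.031, adjusted p = 6.17e-17), and at day 1 was at -0.31 ± 0.031, under the fold limit.

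Il34 binds the same receptor as Csf1, Csf1r. Il34 was at 17.9, 16.6, 17.9, 16.03 and 17.5 CPM at day 0, 5.62, 5.44, 7.22, 5.48 and 6.52 CPM at day 1 and 8.37, 8.01, 7.64, 8.30 and 9.28 CPM at day 12. Day 0 was highest and day 1 lowest, with no overlap. It fell at day 1 (-1.50 ± 0.071, adjusted p = 4.27e-15) and day 12 (-1.04 ± 0.069, adjusted p = 1.25e-12). The step from day 1 to day 12 was 0.45 ± 0.074, and 0.63 with total counts in place of TMM scaling, which passed the limit.

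Csf3 (G-CSF), the growth factor of neutrophils, was at 12.00, 11.8, 12.9, 14.6 and 18.1 CPM at day 0, 23.3, 23.6, 23.6, 25.6 and 25.96 CPM at day 1 and 20.5, 19.5, 18.9, 19.3 and 23.1 CPM at day 12. All cooled libraries were above day 0, whose replicate 5 was nearest to them. Csf3 rose at day 1 (0.82 ± 0.084, adjusted p = 4.75e-09). At day 12 it was at 0.55 ± 0.084, and a rise was called without day 0 replicate 5 (0.66), in the larger library series (0.61) and with total counts (0.74). Csf2 (GM-CSF) reached at most 0.371 CPM. It was called higher at day 12 against day 0 (1.11 ± 0.44, adjusted p = 0.0253) and day 1 (1.44 ± 0.47, adjusted p = 0.00864), with overlapping ranges. The first of these calls was lost without replicate 2 of day 0 (0.89), or without replicate 3 (1.05) or 4 (1.05) of day 12, both were lost in the larger library series (adjusted p = 0.0713 for each), and 12% of its exon bases lie in Gm12223.

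Il15 and Il7 keep lymphocytes alive through receptors with the common gamma chain. Il15 was at 6.32, 6.42, 6.80, 6.08 and 6.84 CPM at day 0, 3.60, 3.10, 3.53, 3.32 and 3.21 CPM at day 1 and 1.73, 2.19, 1.64, 2.25 and 2.66 CPM at day 12. The groups stepped down without overlap. Il15 fell at day 1 (-0.95 ± 0.10, adjusted p = 6.35e-09) and day 12 (-1.63 ± 0.10, adjusted p = 5.01e-13), and the step between them (-0.68 ± 0.11, adjusted p = 5.75e-06) was within the limit with total counts (-0.51). Il7 was not called in any comparison, at 9.53 to 11.4, 9.11 to 10.5 and 8.04 to 9.60 CPM.

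Il33 is an alarmin of the IL-1 family, kept in the nucleus of stromal cells and known in adipose tissue for its action on innate lymphoid and regulatory T cells through Il1rl1 (ST2). It was at 21.8, 24.5, 20.8, 21.5 and 19.97 CPM at day 0, 4.75, 5.51, 5.39, 5.71 and 6.87 CPM at day 1 and 9.03, 9.57, 8.32, 8.84 and 9.14 CPM at day 12. The 3 groups did not overlap, with day 1 lowest and day 12 between. Il33 fell 3.83-fold at day 1 (log2 fold change -1.94 ± 0.074, adjusted p = 6.77e-17) and 2.42-fold at day 12 (-1.27 ± 0.070, adjusted p = 3.73e-14), and was higher at day 12 than at day 1 (0.66 ± 0.076, adjusted p = 4.22e-08). Il18, of the same family, was called nowhere, at 5.73 to 6.62, 5.08 to 6.04 and 4.36 to 5.81 CPM. The classical members were all but unread, since Il1a had at most 4 counts and Il1b at most 1 count in any library.

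Il16, cut from a longer precursor and known as a ligand of CD4, was at 57.8 to 63.5 CPM at day 0, 57.7 to 59.2 CPM at day 1 and 74.1 to 84.7 CPM at day 12. Day 12 was above the others without overlap, at a log2 fold change of 0.36 ± 0.035 that stayed under the limit, and 17.4% of its exon bases lie in other genes on the other strand. Il19, of the IL-10 family, reached at most 0.313 CPM and was at 0 in 2 day 0 libraries. It was called higher at day 1 (1.93 ± 0.67, adjusted p = 0.0126) and lower at day 12 than at day 1 (-1.85 ± 0.68, adjusted p = 0.0201), with overlapping ranges. Leaving out 1 library put the day 1 value between 1.62 and 2.94, the highest without day 0 replicate 1. The latter call was lost without day 1 replicate 5 (-1.59) or day 12 replicate 2 (-1.55).

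The 21 members that were not tested had at most 25 counts in any library. Tnf, the classical inflammatory cytokine, had at most 6 counts. The IL-12 family, which links innate cells to T cells, reached 12 counts for Il12a, 4 for Il12b, 22 for Il23a and 4 for Il27. Ligands of type 2 and mucosal immunity reached 15 counts for Il5, 13 for Il25, 5 for Il31 and 4 for Il9, and Il21 and Il17b reached 12 and 5. Without a filter, edgeR's quasi-likelihood test called 6 of the 21. The share of all genes below the filter that it called was not computed, so this count cannot be set against it. The counts of Il12a were 2, 0, 2, 1 and 1 at day 0, 0, 0, 0, 4 and 0 at day 1 and 11, 6, 12, 7 and 12 at day 12, so day 12 did not overlap the others, and it was called higher at day 12 than at day 0 (adjusted p = 0.00393) and day 1 (adjusted p = 0.00449). The counts of Ccl3 were 1, 1, 0, 0 and 0 at day 0, 2, 1, 8, 25 and 5 at day 1 and 0, 1, 1, 0 and 3 at day 12, and it was called higher at day 1 (adjusted p = 0.00134) and lower at day 12 than at day 1 (adjusted p = 0.0124). Cxcl11, with 16, 5, 14, 10 and 5 counts at day 0 and 2, 1, 0, 0 and 2 at day 12, was called lower at day 12 (adjusted p = 0.00501). The other calls were Il21 higher at day 1 (adjusted p = 0.0399), Tnf higher at day 12 against day 0 (adjusted p = 0.0339) and Ccl22 lower at day 12 than at day 1 (adjusted p = 0.0347). These 6 genes are named after their values were seen, and no fold is given because their groups hold counts at or near 0.

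The genome places 22 of the 59 members in clusters of 3 or more with gaps of up to 500 kb (GRCm38). The first runs over chr11:82035571-82305690 and holds Ccl2, Ccl7, Ccl11, Ccl12, Ccl8 and Ccl1, of which all 3 tested genes fell at some time. The second, at chr11:83525778-83664683, holds Ccl5, Ccl9, Ccl6, Ccl3 and Ccl4, and Ccl6 alone was called of those tested. The third, at chr5:90759360-90905938, holds Cxcl5, Cxcl3, Cxcl15, Cxcl1 and Cxcl2, which had calls in both directions. At chr5:92321347-92365485 stand Cxcl9, Cxcl10 and Cxcl11, and at chr8:94745590-94812036 Ccl22, Cx3cl1 and Ccl17. In the last of these, Cx3cl1 fell and Ccl17, the next tested gene along, rose at both times.

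**Figure D3:**
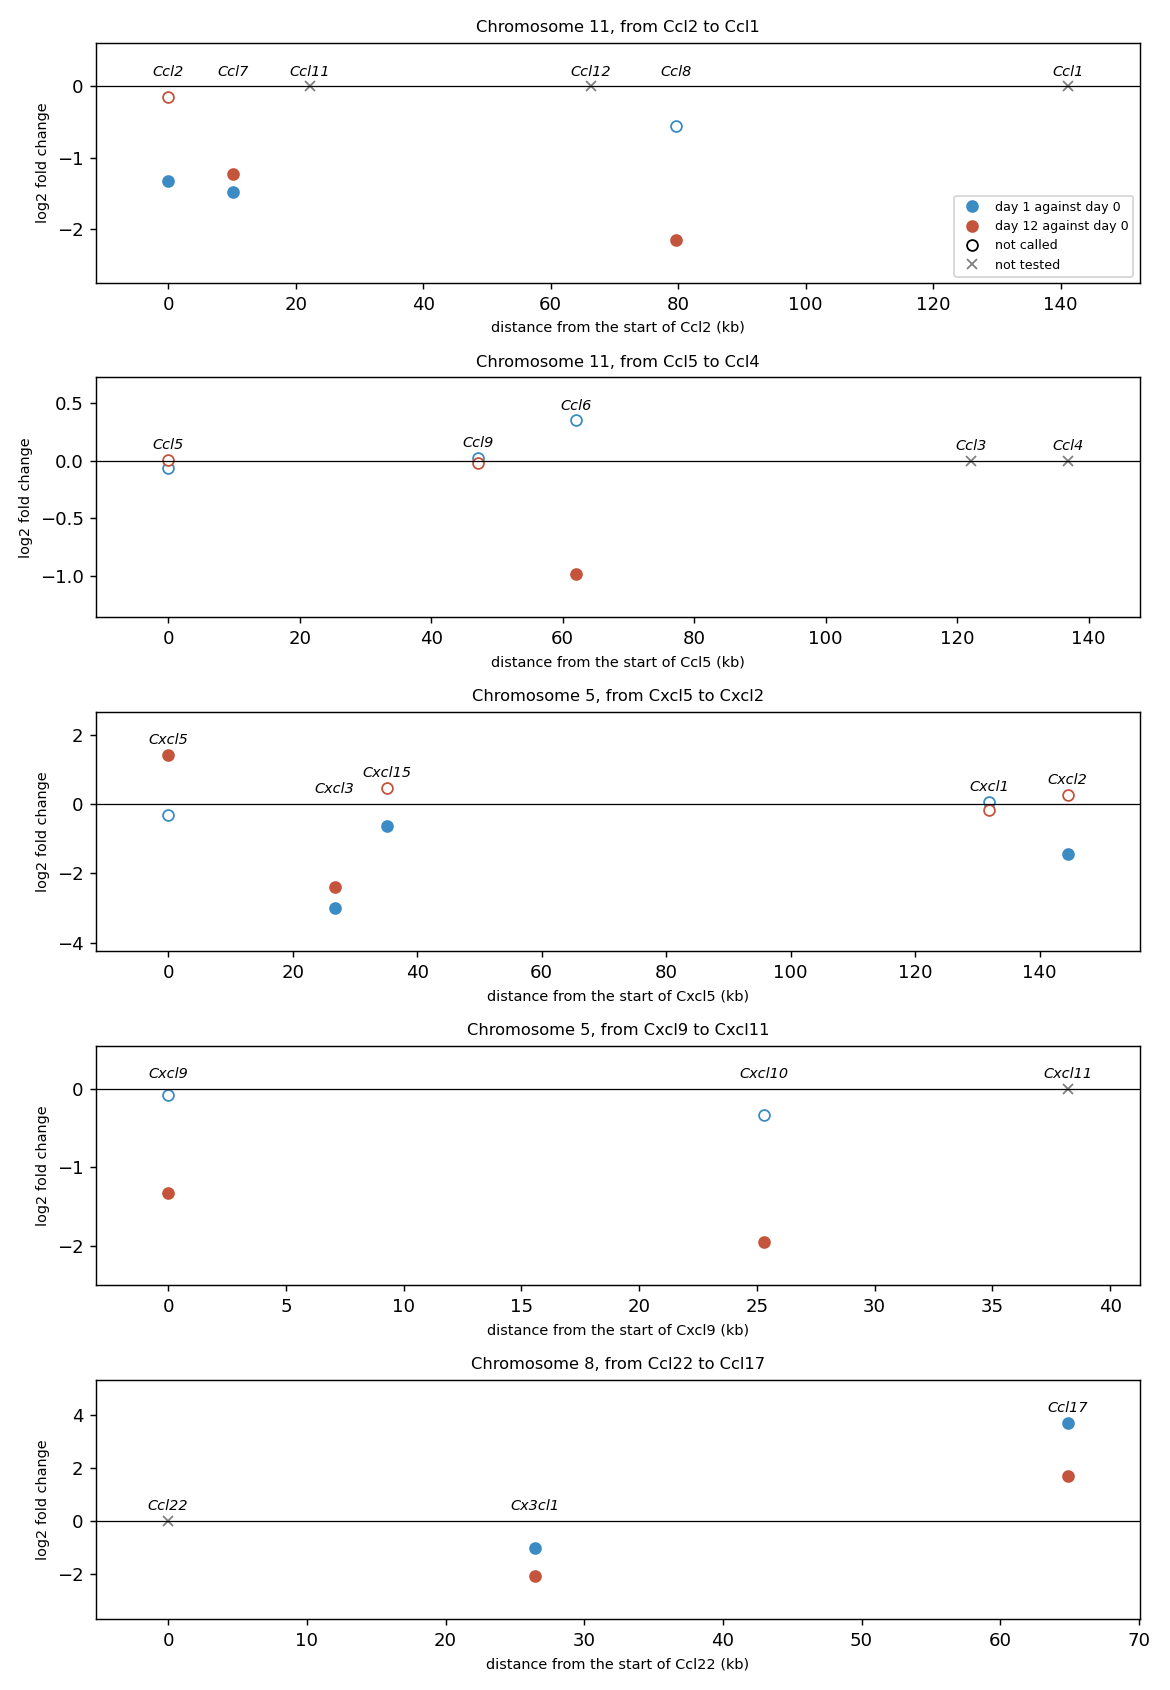
Log2 fold change against day 0 (y axes) of the members of 5 gene clusters by the distance of each gene's lower coordinate from that of the first gene in kb (x axes), at day 1 in blue and day 12 in red, with open points for genes not called and crosses for genes not tested. On chromosome 8 the points of Cx3cl1 lie below 0 and those of Ccl17 above it, and on chromosome 5 Cxcl5 and Cxcl3 lie on opposite sides at day 12.

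The receptors of these ligands were counted from a list of 69 genes, of which 65 were in the table and 43 tested. At day 1, 8 were higher and 6 lower, at day 12 against day 0 10 and 10, and at day 12 against day 1 5 and 8. Of all tested genes 7.71% and 13.4%, 13.0% and 16.2%, and 10.6% and 8.53% were higher and lower in the same comparisons. Most chemokine receptors were barely read: Cxcr4, the receptor of Cxcl12, had at most 8 counts in a library, Cx3cr1 8, Ccr2 4, Ccr4 6, Cxcr3 4 and Cxcr6 6. Chemokine receptors are best known from white blood cells. Cxcr7 (Ackr3), which takes up Cxcl12, was the exception at 173 ± 9.63 CPM at day 0 and 127 ± 4.07 CPM at day 12, under the fold limit (-0.45 ± 0.037). Cxcr2, the receptor of the neutrophil chemokines, was near 1 CPM in each group and was not called. Ccr1, the receptor of Ccl6 and Ccl9, had at most 2 counts in a day 0 library, 14 at day 1 and 42 at day 12, with means of 0.0882 ± 0.0700 and 0.371 ± 0.0929 CPM in the cooled groups.

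Receptors of the interleukins were better covered. The Il33 receptor Il1rl1 was at 397 ± 24.00 CPM at day 0, 574 ± 67.6 CPM at day 1 and 1142 ± 107 CPM at day 12, and rose at day 12 (1.52 ± 0.067, adjusted p = 3.90e-16) while Il33 fell. Its partner Il1rap was not called (-0.26 and -0.22). Of the Il18 receptor, the chain Il18rap rose from 6.05 ± 0.407 to 25.03 ± 1.94 CPM at day 12 (2.05 ± 0.057, adjusted p = 6.99e-20), and the chain Il18r1 fell from 1.45 ± 0.226 to 0.674 ± 0.125 CPM (-1.11 ± 0.20, adjusted p = 1.98e-05). Il1rl2, the receptor of IL-36, rose at both times (1.22 and 1.32).

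For the gp130 ligands, Il6st was at 1431 ± 26.9 CPM at day 0 and was not called, nor were Il6ra (-0.54 at day 12), Lifr (-0.48) and Il11ra1 (-0.25). Il27ra, a further partner of gp130, fell from 1.15 ± 0.139 to 0.0416 ± 0.0192 CPM at day 12 (-4.72 ± 0.31, adjusted p = 9.12e-13). That day 12 mean lay within the limit for 0 counts, 0.0238 to 0.0428 CPM, so the size of the fall is uncertain. For Il15, the chain Il15ra fell at day 12 (-0.77 ± 0.12, adjusted p = 2.05e-06), as its ligand did. Il2rb, shared by the Il15 receptor, rose from 0.494 ± 0.254 to 2.84 ± 0.242 CPM at day 1 (2.51 ± 0.22, adjusted p = 3.69e-10) and was lower at day 12 than at day 1 (-1.76 ± 0.21, adjusted p = 9.31e-08). Il7r had at most 6 counts.

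Among receptors of the colony-stimulating factors, Csf1r was below 1 CPM in each group and was higher at day 1 (2.03 ± 0.31, adjusted p = 2.58e-06) and day 12 (1.47 ± 0.31, adjusted p = 1.70e-04), with 15.1% of its exon bases in Hmgxb3. Csf2ra fell at day 1 (-1.45 ± 0.070, adjusted p = 5.55e-15) and day 12 (-0.94 ± 0.068, adjusted p = 6.24e-12), and Csf3r was not called. Of the remaining receptors, Il13ra2, a decoy for IL-13, fell at both times (-1.59 and -1.62), and Il20rb, a chain of the Il19 receptor, rose at both (1.20 and 1.34). Tnfrsf1a and Tnfrsf1b, the receptors of Tnf, were at 266 ± 6.42 and 96.4 ± 2.10 CPM at day 0 and were not called.

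**Figure D4:**
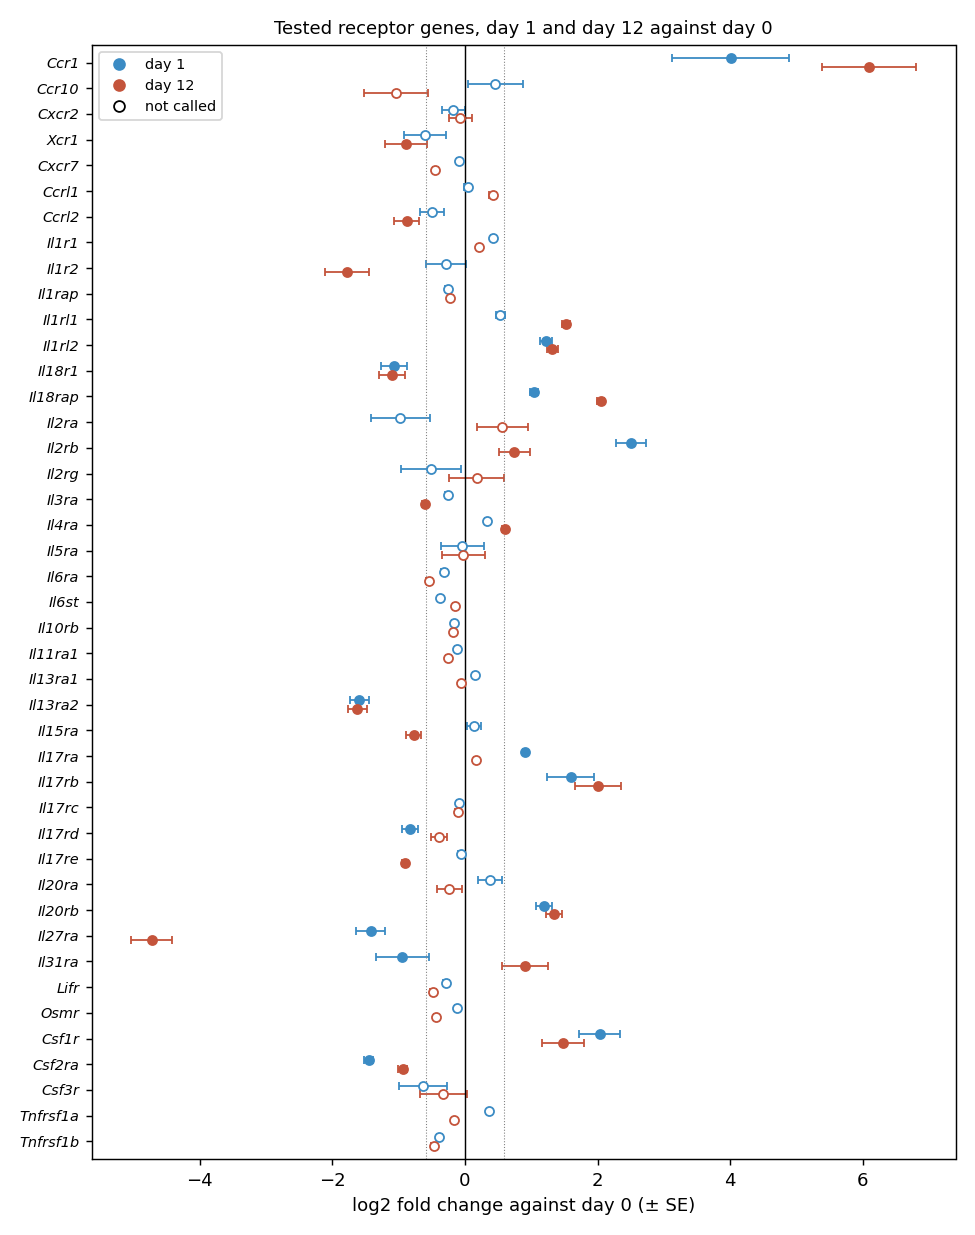
Log2 fold change against day 0 (x axis, ± SE) of the 43 tested receptor genes (y axis), at day 1 in blue and day 12 in red, with open points for genes not called and dotted lines at the 1.5-fold limit. Ccr1 stands farthest right on at most 2 counts per day 0 library. Il27ra stands farthest left, with a day 12 mean near the limit for 0 counts. Most chains of the gp130 and TNF receptors lie within the dotted lines.

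Genes of the NF-kB pathway, 47 in the list and all tested, were counted in the same way, and 1 was higher and 10 lower at day 1, 1 and 9 at day 12 against day 0, and 2 and 2 at day 12 against day 1. In either direction 21.1%, 29.2% and 19.1% of all tested genes were called. The median log2 fold change of the list was -0.062 at day 1 and -0.12 at day 12, where that of all genes was -0.0088 and 0.012. The largest falls at day 1 were those of Bcl3, a nuclear partner of NF-kB (-1.16 ± 0.052, adjusted p = 1.21e-15), of Traf1 (-1.02 ± 0.13, adjusted p = 1.14e-07) and of the kinase Irak4 (-0.91 ± 0.053, adjusted p = 1.54e-13). Traf1 and Irak4, like Ccl2 and Cxcl2, were higher at day 12 than at day 1 (0.88 and 0.79). At day 12 the largest falls were those of the adhesion molecules Vcam1 (-1.64 ± 0.042, adjusted p = 1.46e-20) and Icam1 (-1.28 ± 0.032, adjusted p = 7.34e-21) and of the receptor Tlr2 (-0.73 ± 0.029, adjusted p = 7.70e-17). The kinase Map3k7 was the 1 gene called higher at both times (0.75 and 0.93). Of the exon bases of Irak4 7.87%, and of those of Icam1 11.7%, lie in other genes.

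Genes of JAK-STAT signalling and its SOCS inhibitors numbered 27, of which 26 were tested. At day 1 2 were called, both lower, at day 12 1 was higher and 6 lower, and at day 12 against day 1 2 were called, both lower, with medians of 0.0022, -0.050 and -0.034, where those of all tested genes were -0.0088, 0.012 and 0.0092. The shares of all genes called were 21.1%, 29.2% and 19.1%. Stat2, which takes part in the interferon signal, fell at day 1 (-0.90 ± 0.063, adjusted p = 6.10e-12) and at day 12 (-0.92). Socs2 had a large fall at day 12 (-1.22 ± 0.038, adjusted p = 4.74e-19), Cish was also lower (-0.96), and Ptpn6 was the 1 gene called higher (0.79). At day 12 against day 1 Socs2 (-1.50) and Ptpn2 (-0.77) were lower.

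A further list of 30 ligands and soluble antagonists that the symbol rule leaves out held 20 tested genes, of which 2 were higher and 4 lower at day 1 and 4 and 7 at day 12, beside 21.1% and 29.2% of all tested genes called in either direction. Il1rn, the antagonist of the IL-1 receptor, was at 239 ± 24.1 CPM at day 0, 77.7 ± 9.18 CPM at day 1 and 154 ± 10.98 CPM at day 12, and fell at day 1 (-1.62 ± 0.071, adjusted p = 8.85e-16) and less at day 12 (-0.63 ± 0.069, adjusted p = 1.22e-08). Its order over the groups was that of Il33. Il18bp, the soluble inhibitor of Il18, fell at day 12 (-1.45 ± 0.086, adjusted p = 1.50e-13), where Il18 itself was not called. Ppbp, a neutrophil chemokine named outside the rule, rose at day 12 (1.21 ± 0.23, adjusted p = 3.90e-05), as Cxcl5 did.

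Markers of cells that could also make or receive these ligands were read in the same libraries. Of 14 listed macrophage and monocyte genes 10 were in the table, and their summed level was 26.7 to 34.0 CPM at day 0, 42.5 to 48.7 CPM at day 1 and 30.2 to 34.6 CPM at day 12, most of it Cd14 and Cd68. The defining gene Ptprc (CD45) had at most 7 counts, Itgam at most 16 and Emr1 (F4/80) at most 42 in any library. The 6 T and B cell genes in the table summed to at most 0.181 CPM, and the 5 endothelial genes to at most 1.77 CPM. Of 6 neutrophil and mast cell genes 4 were in the table, and their sum was 0.482 to 1.29 CPM at day 0, 1.06 to 1.70 CPM at day 1 and 2.93 to 3.93 CPM at day 12, where S100a8 and Kit rose. The 5 mesothelial genes summed to 2.06 to 2.25 CPM at day 0, 1.79 to 2.15 CPM at day 1 and 23.4 to 38.3 CPM at day 12, nearly all of it Msln, with Wt1 and Upk3b at no more than 1 and 6 counts. The 8 stromal genes summed to 7215 to 7809 CPM at day 0, 6762 to 6904 CPM at day 1 and 6203 to 6445 CPM at day 12. Most of the day 0 sum was Dcn. Against day 0, 0 of the 6 tested stromal genes were called at day 1 and 1, lower, at day 12. Their median log2 fold changes were -0.019 and -0.0072. The 8 adipocyte genes summed to 2414 to 2713, 2991 to 3198 and 2604 to 2833 CPM. Of these genes, 2 were called higher at each time against day 0, while 2 were called lower at day 1 and 4 at day 12. Of all tested genes, 7.71% were higher and 13.4% lower at day 1, and 13.0% and 16.2% at day 12. Of 6 tested macrophage and monocyte genes, 2 were higher and 1 lower at day 1, and 2 were higher at day 12. Of 4 tested endothelial genes, 0 were called at day 1, and 2 were higher and 1 lower at day 12. The part of any of these cells in the ligand results was not tested.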

How the data were processed

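RNA of 15 libraries was measured, 5 in each of 3 groups placed by the labels. The authors aligned reads to the mouse build mm10 with TopHat2 2.0.13 and Bowtie2 2.2.1 and deposited raw read counts for each gene from HTSeq, whose version, annotation and strand setting are not given in the sources used here. The authors also deposited log2 values regularised with DESeq2, and tables of their own comparisons with log2 fold changes, Wald scores, mean scaled counts as a signal, and p-values, none of which were used. All columns of the count table were matched to a sample, so 0 were left out.

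Counts were tested in R 4.3.3 with edgeR 4.0.16 (glmQLFit and glmQLFTest, limma 3.58.1) over all 15 libraries with TMM scaling, after filterByExpr with a minimum count of 10. Of 18804 genes 14293 were tested in 3 comparisons, with Benjamini-Hochberg adjustment over all of them, a threshold of 0.05 and a fold change over 1.5. The procedure was tested on simulated data. DESeq2 1.42.0 was an alternative. Total counts ran from 64648178 to 133270973 per library, and the common dispersion of 0.00276 is a coefficient of variation of 5.25% within groups. Positions and exon lengths came from GENCODE vM21 (GRCm38) and upstream sequences from RefSeq (GRCm38.p6), which had entries for 41 of the 59 members. Exon lengths join all transcripts of a gene, so levels per length are approximate.

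The symbol rule reads no measured value, but the choice to report these genes, and the gene lists, were made with earlier results of these data known. Every member is accounted for. Values in every library are given for tested members with a mean of at least 1 CPM in a group that were called in some comparison. Ranges are given for those called in none. Members below 1 CPM are given by the ranges of some groups or by their highest value (Ccl8 is given in full). From the lists, tested receptors of named ligands were named, and in each comparison up to 3 called genes of at least 1 CPM with the largest change in each direction. The values of 1 gene of these lists are not reported here. Of the ligands outside the rule, those named were chosen after their values were seen. Upstream sequences are those of the 4 called members with the largest change at day 12 that have an entry. Older symbols were used where the table holds them (Darc, Ccbp2, Cxcr7, Ccrl1 and Emr1), and Ccr6, Ccr8, Cxcr1, Il10ra, Osm, Xcl1, Ifng, C1qa, C1qb, C1qc, Tyrobp, Ms4a1, S100a9 and Mcpt4 were not analysed here. Alternatives were other scalings, filters and tests, the series of library numbers, the replicate number as a block, and leaving out each library in turn.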

Additional observations from a re-analysis of the deposited data

Results flagged for a closer look

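In 9 of 114 groups of 5 libraries, 1 library stood apart from the other 4 by Dixon's test, where chance gives about 1 in 20. High libraries were day 1 replicate 5 for Ccl17 (3.23 CPM, where the others reached 2.62) and for Ccl19 (1.03 CPM), day 12 replicate 5 for Ccl6 (53.4 CPM), day 1 replicate 3 for Cxcl12 (1808 CPM, beside 1765 to 1777), day 0 replicate 2 for Cxcl15 (1.01 CPM) and day 12 replicate 3 for Il11 (1.68 CPM). Low libraries were day 1 replicate 3 for Ccl25 (1.20 CPM), day 0 replicate 3 for Ccl8 (0.374 CPM) and day 12 replicate 2 for Csf2 (0.177 CPM, 14 counts).

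For 24 of the 38 tested members the effects against day 0 differed between day 12 and day 1, by edgeR's quasi-likelihood test of that difference itself. The share of all tested genes was 19.1%. Ccl8, Ccl20, Csf2, Cxcl13, Cxcl17 and Il19, which are in this set, were below 1 CPM in every group. The 11 that were higher at day 12 were Cxcl5 (1.76 on the log2 scale), Cxcl2 (1.71), Cxcl17 (1.51), Ccl20 (1.49), Csf2 (1.44), Ccl2 (1.18), Cxcl15 (1.10), Ccl25 (0.91), Il6 (0.80), Il33 (0.66) and Cxcl3 (0.60). The 13 that were lower were Ccl17 (-2.02), Il19 (-1.85), Cxcl10 (-1.61), Ccl8 (-1.60), Ccl6 (-1.33), Cxcl9 (-1.25), Cxcl14 (-1.21), Cx3cl1 (-1.08), Cxcl13 (-0.99), Cxcl12 (-0.86), Csf1 (-0.83), Lif (-0.76) and Il15 (-0.68). Among those lower at day 12, Ccl17 and Il19 were called above day 0 at day 1, and Il33, Cxcl3, Ccl2, Cxcl2 and Cxcl15 of the other set were called below it.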

How the results depend on the processing

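Of 114 fold changes of tested members, 112 kept their direction and their side of the threshold with DESeq2's size factors in edgeR and with DESeq2, 114 with upper quartile factors, 113 without a filter, 113 with a term for the library series, 104 in the larger library series, 100 with total counts, 90 without a fold limit, and 61 of 63 with a filter at a mean of 10 CPM. With total counts, which moved the median of all genes from 0.012 to 0.21 at day 12 against day 0, the share of lower among all called genes went from 55.6% to 35.9% there and from 44.7% to 27.3% at day 12 against day 1, and among members from 70.8% to 63.0% and from 54.2% to 47.8%. The cause of changes with the setting was not tested.

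Reversals were all of uncalled values. With total counts they were Ccl2 (0.049), Ccl9 (0.17) and Cxcl1 (0.030) at day 12 against day 0, and Ccl19 (0.073), Ccl27a (0.062), Ccl9 (0.13), Il18 (0.051) and Il7 (0.012) at day 12 against day 1. Ccl5 at day 12 was at -0.0048 with DESeq2's factors, -0.0032 with DESeq2 and -0.015 with a filter at a mean of 10 CPM, where Ccl9 at day 1 was at -0.023. In the larger library series Ccl9 (0.0069) and Il19 (-0.088) at day 12, and Ccl19 (0.041) and Ccl27a (0.0055) at day 12 against day 1, changed sign, and Cxcl13 at day 12 against day 1 was no longer called (-0.84, adjusted p = 0.0507). Leaving out 1 library gave ranges of -0.13 to 0.024 for Ccl25, -0.0017 to 0.054 for Ccl9 and -0.16 to 0.017 for Cxcl9 at day 1, of -0.061 to 0.065 for Ccl5, -0.043 to 0.0100 for Ccl9, -0.079 to 0.057 for Il11 and -0.35 to 1.09 for Il19 at day 12, and of -0.24 to 0.056 for Ccl19 at day 12 against day 1.

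Counts moved as follows. With a filter at a mean of 10 CPM, 1 member was higher and 7 lower at day 1, 2 and 11 at day 12, and 5 and 8 at day 12 against day 1, and 2, 4 and 4 receptors were called, with fewer genes tested. Without a fold limit 7 members were higher and 16 lower at day 1, 12 and 22 at day 12 against day 0, and 14 and 17 at day 12 against day 1, and 31, 35 and 27 receptors, 34, 38 and 29 NF-kB genes and 20, 20 and 13 JAK-STAT genes were called in the 3 comparisons. With total counts 7 NF-kB and 4 JAK-STAT genes were called at day 12 against day 1. Without a filter 6 members were higher and 12 lower at day 1, 8 and 18 at day 12, and 12 and 15 at day 12 against day 1. The share of all genes called was not computed for the other filters or without a fold limit. Those counts therefore describe the members and lists only. Leaving out 1 library gave 4 members higher and 11 to 13 lower at day 1, 5 to 7 and 17 at day 12, and 10 to 11 and 12 to 13 at day 12 against day 1.

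Replicate numbers did not pair the libraries: deviations of same-numbered libraries from their group means correlated at -0.026 to 0.044, with 0 of 15 pairs over 0.1, and those of other numbers at -0.042 to 0.051. With the replicate number as a block, 4 members were higher and 12 lower at day 1, 6 and 17 at day 12, and 11 and 13 at day 12 against day 1, and Ccl20 at day 12 (0.81, adjusted p = 0.0650) was the 1 call that changed. That call was also lost with DESeq2's factors (0.81), DESeq2 (0.82), no filter (0.83), the larger series (0.54) and the series term (0.81). The highest libraries of Ccl20 and Csf2 held 0.351 and 0.371 CPM, and whether depth had a part in their lost calls was not tested.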
